A study of Mus musculus with 342 samples.

Results

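Heat shock proteins and chaperones were examined as a group of 56 genes in liver arrays of male Collaborative Cross mice given TAK-875 or vehicle. The members were all genes whose platform symbol begins with Hsp and a letter from a to e, h or a digit, with Dnaja, Dnajb or Dnajc, or with any of Cct2 to Cct8. They made up 0.616% of the 9093 genes measured. The rule uses symbols and no measured value, although it was chosen with earlier results of these data known. Each gene was read by its probe set, a group of oligonucleotides on the array, with the highest mean over all arrays. By the compartment in which each protein is known to act, 33 members were cytosolic, 12 belonged to the endoplasmic reticulum (ER), 8 were mitochondrial, 2 were nuclear and 1, Dnajc22, was not assigned. The 33 cytosolic members were 9 genes of the HSP70, HSP110 and HSP90 families and their binding proteins, 2 small heat shock proteins, 15 J proteins and 7 subunits of the CCT chaperonin. A further 24 listed genes that match the rule, among them Hspd1, Hsp90ab1 and Hspa1a, were not analysed here.

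The arrays came from 171 TAK-875 mice and 171 vehicle mice of 44 Collaborative Cross lines, inbred strains that each mix several founder genomes. TAK-875 mice received 600 mg/kg of TAK-875 once by oral gavage, and vehicle mice received 0.5% w/v methylcellulose. TAK-875, or fasiglifam, activates GPR40, a receptor for fatty acids, and was developed against type 2 diabetes. All mice were about 8 to 10 weeks old, and whole livers were taken 24 h after the dose. Mice of a line were dosed as matched pairs, with 4 pairs in 39 lines and 3 pairs in 5 lines, so the study compared the drug's effect with the spread among mice of a line and between lines. The compound is named here as in the sample labels, although the series title carries a different number.

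Chaperones bind unfolded or partly folded proteins and keep them from aggregating. HSP70 proteins bind and release clients in a cycle of ATP hydrolysis, J proteins (Dnaj genes) start that cycle, and HSP110 proteins and other exchange factors end it by replacing ADP. Cytosolic HSP90 matures signalling proteins, the CCT ring folds actin and tubulin, and small heat shock proteins hold clients without ATP. In the ER the same work is done by BiP (Hspa5) and GRP94 (Hsp90b1), whose genes answer to the unfolded protein response, while cytosolic stress acts through heat shock factor and heat shock elements. Hepatocytes secrete large amounts of protein and depend on ER folding.

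Promoter sequences of 45 members, 59 promoters in all, were matched in a RefSeq table of build GRCm38.p6, which gives 300 bases around each start. The ER stress response element, CCAAT and CCACG with any 9 bases between them, searched on both strands like every motif here, was present in 3 member genes, Hspa5, Hsp90b1 and Dnajc3, and in 0.119% of all 32851 promoters of that length. A heat shock element of 3 units, GAA and TTC in alternation with any 2 bases between units, was present in Hspe1 and Hsph1 and in 0.603% of all promoters. The shorter form of 2 units, GAANNTTC or TTCNNGAA, which lies within the longer one, was present in 12 member genes, Hspa1b and Hspb1 among them, and in 15.1% of all promoters. Counted by promoters, 5.08% of the 59 held the ER element and 5.08% the heat shock element of 3 units. The form of 2 units was in 22% of them. The promoters with the ER element are shown because they belong to 3 ER chaperone genes that rose, and those with the long heat shock element because Hspe1 and Hsph1 rose. The ER members Dnajb9, Dnajb11 and Dnajb12 rose without a match to the ER element, and Hspb1 rose without the long heat shock element. A link between element and response was not tested. Capitals mark the ER element in the Hspa5, Hsp90b1 and Dnajc3 sequences and every heat shock unit pair in the Hspe1 and Hsph1 sequences.
Hspa5 promoter, chr2:34771840-34772139, plus strand: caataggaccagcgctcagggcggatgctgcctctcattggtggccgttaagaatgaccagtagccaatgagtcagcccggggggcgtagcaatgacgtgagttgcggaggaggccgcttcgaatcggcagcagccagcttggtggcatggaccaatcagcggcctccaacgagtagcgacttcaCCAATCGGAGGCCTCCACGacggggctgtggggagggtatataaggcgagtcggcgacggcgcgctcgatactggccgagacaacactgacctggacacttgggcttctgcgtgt
Hsp90b1 promoter, chr10:86705395-86705694, minus strand: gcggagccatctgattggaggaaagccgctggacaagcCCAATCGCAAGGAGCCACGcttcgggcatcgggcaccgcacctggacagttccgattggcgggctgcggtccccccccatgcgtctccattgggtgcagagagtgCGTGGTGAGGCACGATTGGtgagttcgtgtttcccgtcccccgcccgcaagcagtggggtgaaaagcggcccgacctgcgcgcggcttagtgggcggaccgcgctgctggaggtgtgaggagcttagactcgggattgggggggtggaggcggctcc
Dnajc3 promoter, chr14:118937682-118937981, plus strand: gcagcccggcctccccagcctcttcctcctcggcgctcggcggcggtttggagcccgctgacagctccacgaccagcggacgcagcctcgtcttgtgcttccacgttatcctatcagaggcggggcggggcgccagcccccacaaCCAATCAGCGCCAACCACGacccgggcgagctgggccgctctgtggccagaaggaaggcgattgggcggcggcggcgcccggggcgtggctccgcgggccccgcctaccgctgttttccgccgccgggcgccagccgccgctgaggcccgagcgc
Hspe1 promoter, chr1:55087898-55088197, plus strand: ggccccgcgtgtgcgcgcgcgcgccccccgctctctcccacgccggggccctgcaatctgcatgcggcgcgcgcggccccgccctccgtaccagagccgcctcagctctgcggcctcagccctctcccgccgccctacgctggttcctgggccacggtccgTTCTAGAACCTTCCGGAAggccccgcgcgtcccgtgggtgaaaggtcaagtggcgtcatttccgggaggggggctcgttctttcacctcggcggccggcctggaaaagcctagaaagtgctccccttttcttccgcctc
Hsph1 promoter, chr5:149636266-149636565, minus strand: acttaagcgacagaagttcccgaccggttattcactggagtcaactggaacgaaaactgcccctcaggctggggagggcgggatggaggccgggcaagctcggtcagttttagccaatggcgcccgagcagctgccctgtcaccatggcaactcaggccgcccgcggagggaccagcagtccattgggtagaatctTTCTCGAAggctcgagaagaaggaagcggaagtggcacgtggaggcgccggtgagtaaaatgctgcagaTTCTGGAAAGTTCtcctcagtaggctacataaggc
A match describes these letters only, and binding of a factor was not measured.

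Values are log2 expression values from RMA, a standard summary of Affymetrix arrays, so a difference of 1 is a 2-fold change. Hepatocyte markers (Alb, Apoa1, Ttr, Fgb, Cps1, Hnf4a) had mean levels from 11.0 to 13.5, at or above the 97th percentile of all genes, as the liver label requires. Array medians ran from 5.4 to 6.2, and they averaged 0.0105 ± 0.0814 higher in TAK-875 than in vehicle mice (SD over 44 lines), with 22 lines higher. A set of 16 arrays, 10 of TAK-875 mice and 6 of vehicle mice, correlated poorly with other arrays of the same line and treatment. Their median r was under 0.949, against a typical 0.978. In lines with 3 pairs, 1 odd array can also lower the median r of its partners. The 16 arrays lie in 16 pairs and include all 3 pairs of CC053/Unc, so results are also given without those pairs. Precision is limited by how many arrays there are.

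Across lines, chaperone genes changed upward: 24 of 56 members rose with TAK-875 and 0 fell, at a limma adjusted p under 0.05 over all genes. Of all genes measured, 27.1% were called, 15.3% as rises and 11.9% as falls. The median member difference was 0.078, with 49 of 56 members above 0, whereas the median of all genes was 0.0056, with 4803 of 9093 above 0. The rises were small, from 0.066 to 0.49 on the log2 scale, and the 32 members that were not called lay between -0.16 and 0.20, with 25 above 0 and 7 below. At an unadjusted p under 0.05, 29 members passed. With each array centred on its median, 27 members passed that threshold, beside 3324 of all 9093 genes. The test used the mean TAK-875 minus vehicle difference of each of the 44 lines. With each array centred on its median, 23 members rose and 0 fell, against 12.6% and 14.1% of all genes, and without the poorly correlated pairs 24 rose and 0 fell. Leaving out the pairs numbered 1 in each line lowered the count to 13, whereas leaving out those numbered 2, 3 or 4 gave 25, 22 and 18. Counts over all genes with pairs left out are not given here, so a change particular to the members cannot be read from these.

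**Figure D1:**
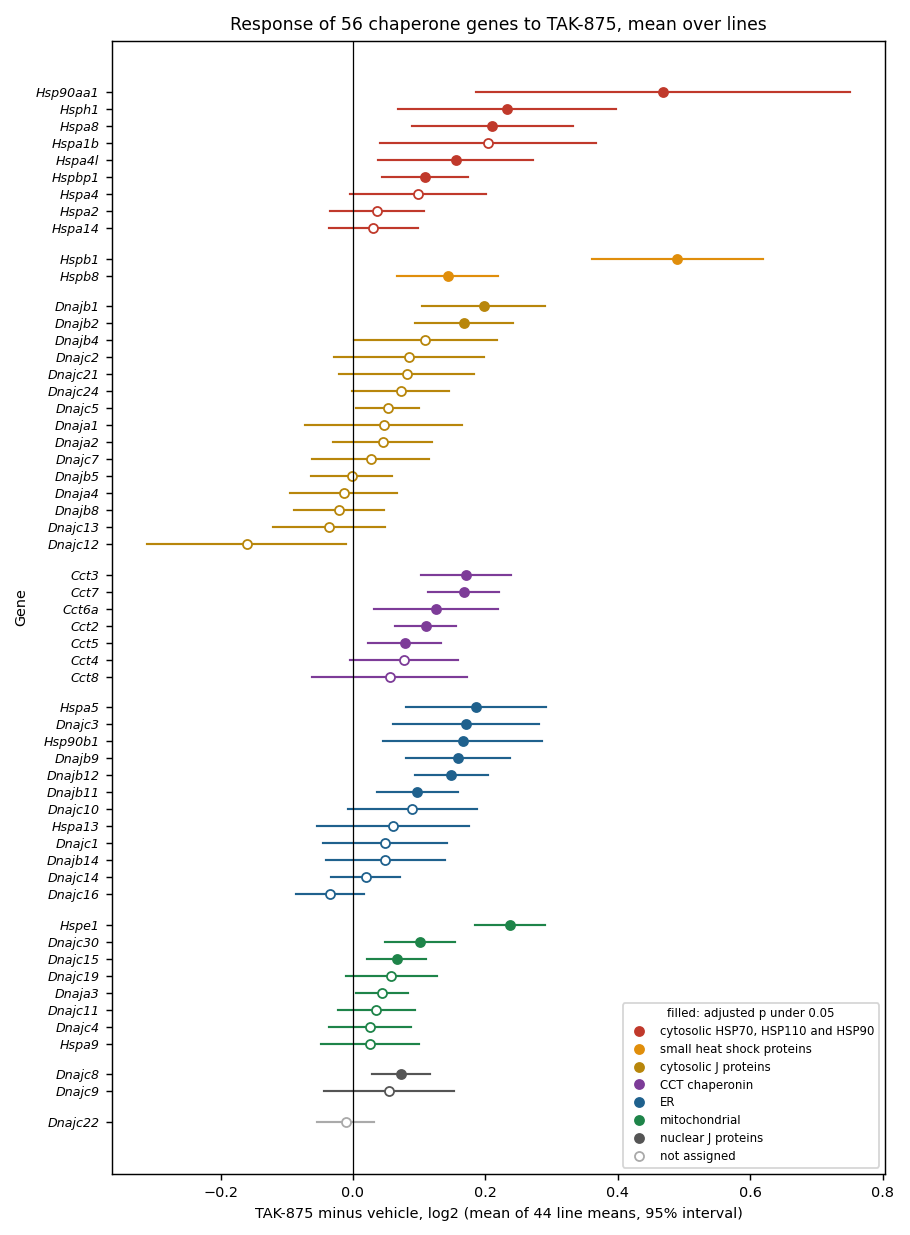
Mean TAK-875 minus vehicle difference (log2, x axis) of each of the 56 members (y axis, by compartment), as points with 95% intervals over 44 line means. Filled points mark the 24 members called, all to the right of 0, with Hspb1 and Hsp90aa1 farthest out at 0.49 and 0.47.

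Small heat shock proteins rose in this comparison, both of the 2 measured, where 15.3% of all genes rose. Hspb1, which encodes HSP27 and holds unfolded proteins without ATP, ran from 4.51 through a median of 7.79 to 11.25 in TAK-875 mice, and from 4.83 through 7.23 to 9.65 in vehicle mice. The ranges overlapped widely, and the highest value was that of a TAK-875 mouse. It was 0.49 ± 0.44 (SD over 44 lines), a 1.40-fold change, with 40 of 44 lines and 127 of 171 pairs higher (adjusted p = 3.66e-08). The other Hspb1 probe set gave 0.48. Hspb8, which works with the exchange factor Bag3 in clearing misfolded proteins, had medians of 10.10 in TAK-875 mice and 9.99 in vehicle mice and rose by 0.14 ± 0.26, in 32 lines (adjusted p = 0.00288). Its 3 probe sets gave 0.14, 0.14 and 0.18.

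Of the cytosolic HSP70, HSP110 and HSP90 genes, 5 of 9 rose, beside 15.3% of all genes. Hsp90aa1, the stress-inducible cytosolic HSP90, ran from 2.73 through 5.81 to 8.18 in TAK-875 mice, and from 2.67 through 5.19 to 7.80 in vehicle mice. The groups overlapped over nearly their whole ranges. Its difference averaged 0.47 ± 0.98, the widest SD over lines among members, and 29 of 44 lines were higher (adjusted p = 0.00912). Without pairs numbered 1 it was 0.32 with an adjusted p of 0.127, and without those numbered 4 it was 0.41 with an adjusted p of 0.0605. Hsp90aa1 and Hspa8 were each read by 1 dim probe set, with mean levels of 5.44 and 4.52, so their values may not stand for the main transcripts.

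Hsph1, an HSP110 exchange factor, ran from 5.03 through 8.46 to 10.52 in TAK-875 mice, and from 5.87 through 8.14 to 9.40 in vehicle mice. TAK-875 mice thus held both the lowest and the highest value. Hsph1 rose by 0.23 ± 0.57, in 30 lines (adjusted p = 0.0272), and by 0.15 without pairs numbered 1 (adjusted p = 0.256). Hspa8, the constitutive cytosolic HSP70, had medians of 4.59 in TAK-875 mice and 4.34 in vehicle mice and rose by 0.21 ± 0.41 (adjusted p = 0.00638). Without pairs numbered 1 its difference was 0.11 (adjusted p = 0.228). Hspa4l, another HSP110 protein, rose by 0.16 ± 0.40 (adjusted p = 0.0407), and the HSP70-binding protein gene Hspbp1 by 0.11 ± 0.21 (adjusted p = 0.00788). Hspa4l also lost its call without pairs numbered 1 (0.10, adjusted p = 0.258) or 4 (0.14, adjusted p = 0.0864).

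Hspa1b, the stress-inducible HSP70, did not pass the threshold. It ran from 5.08 through 7.66 to 10.96 in TAK-875 mice and from 4.98 through 7.49 to 9.66 in vehicle mice. The highest TAK-875 mouse stood above every vehicle mouse, but the medians lay close together. The difference was 0.20 ± 0.56, with 31 of 44 lines and 99 of 171 pairs higher (adjusted p = 0.0546, 95% interval 0.041 to 0.37). The call moved with small choices: without the poorly correlated pairs it was 0.27 with an adjusted p of 0.00383, and with the pair as the unit 0.22 with an adjusted p of 0.015. Its probe sets can also read the near-identical Hspa1a, so the value may be shared between the genes.

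**Figure D2:**
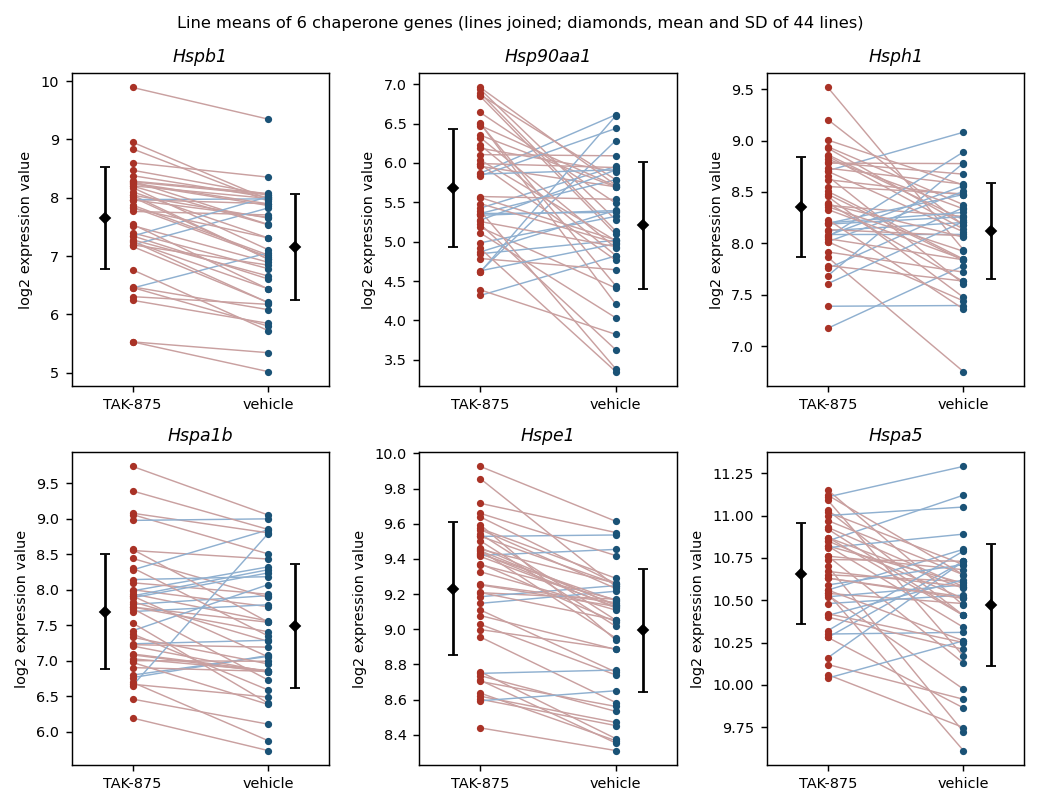
Mean log2 expression value of each of 44 lines (y axis) in TAK-875 mice (left, red) and vehicle mice (right, blue) for 6 genes, with lines joined in pale red where the TAK-875 mean is higher and pale blue where it is lower, and diamonds for the mean and SD of lines. The TAK-875 mean is higher in 40 lines for Hspb1, 38 for Hspe1, 31 for Hspa1b, 30 for Hsph1 and Hspa5 and 29 for Hsp90aa1.

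Of the cytosolic J proteins, 2 of 15 (13.3%) rose, near the 15.3% of all genes. Dnajb1, the inducible HSP40 that starts the HSP70 cycle, ran from 6.45 through 7.43 to 9.20 in TAK-875 mice, and from 6.04 through 7.29 to 8.56 in vehicle mice. Its whole distribution lay a little higher with the drug. It rose by 0.20 ± 0.31, in 31 lines, and its other probe set gave 0.18 (adjusted p = 7.98e-04 for the first). Dnajb2, a J protein that also binds ubiquitin chains, rose by 0.17 ± 0.25, in 38 lines and 137 of 171 pairs (adjusted p = 3.98e-04). Dnajc12, known as a partner of aromatic amino acid hydroxylases such as phenylalanine hydroxylase, had the lowest difference of all members, -0.16 ± 0.52, and did not pass (adjusted p = 0.106). Dnaja1 (0.046), Dnaja2 (0.045) and Dnaja4 (-0.014) did not pass either.

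The CCT chaperonin had 5 of its 7 measured subunits called as rises, beside 15.3% of all genes. Cct3 ran from 8.01 through 10.00 to 10.97 in TAK-875 mice and from 8.17 through 9.79 to 10.54 in vehicle mice. Cct3 rose by 0.17 ± 0.23, in 36 lines, with its 5 probe sets between 0.16 and 0.17 (adjusted p = 8.31e-05). Cct7 rose by 0.17 ± 0.18 (38 lines, adjusted p = 2.75e-06), Cct2 by 0.11 ± 0.15 (36 lines, adjusted p = 1.65e-04), Cct6a by 0.13 ± 0.32 (29 lines, adjusted p = 0.0372) and Cct5 by 0.078 ± 0.18 (28 lines, adjusted p = 0.0277). Cct4 (0.078) and Cct8 (0.055) did not pass. Quantile normalization, or leaving out pairs numbered 1 or 4, lowered the count of CCT genes called to 3, and in each case Cct6a lost its call (0.11, 0.082 and 0.11, adjusted p = 0.0691, 0.213 and 0.144). Tcp1, the remaining common subunit of the ring, which the rule does not cover, rose by 0.15 ± 0.27 (adjusted p = 0.00419).

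In the ER, 6 of 12 members rose, beside 15.3% of all genes. Hspa5, which encodes BiP, ran from 8.74 through 10.68 to 11.88 in TAK-875 mice and from 8.25 through 10.50 to 11.58 in vehicle mice. The groups overlapped over most of their ranges, and TAK-875 mice held the highest value and vehicle mice the lowest. Hspa5 rose by 0.19 ± 0.37, in 30 lines (adjusted p = 0.00578). Hsp90b1, which encodes GRP94, rose by 0.17 ± 0.42 (adjusted p = 0.0323), Dnajc3, a BiP co-chaperone also known as p58IPK, by 0.17 ± 0.38 (adjusted p = 0.0155), and the BiP co-chaperone Dnajb9 by 0.16 ± 0.27 (adjusted p = 0.00147). The J proteins Dnajb12 and Dnajb11 rose by 0.15 and 0.097. The other, dimmer Dnajb12 probe set gave 0.031, and its vehicle line means did not follow those of the first (r = -0.023). Dnajc3 was the sole called member with probe sets of both signs, 1 of its 5 at -0.031, and its mean over probe sets was not called (0.081, adjusted p = 0.353). Without pairs numbered 1, ER calls dropped to 2, with Hspa5 at 0.14 (adjusted p = 0.0697), Hsp90b1 at 0.088 (adjusted p = 0.332) and Dnajc3 at 0.087 (adjusted p = 0.288). Hsp90b1 also lost its call without the poorly correlated pairs, at 0.14 (adjusted p = 0.0631), and without pairs numbered 4, at 0.15 (adjusted p = 0.0991).

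Mitochondrial chaperones gave 3 rises of 8, beside 15.3% of all genes. Hspe1, the HSP10 lid of the mitochondrial HSP60 chamber, ran from 7.95 through 9.32 to 10.33 in TAK-875 mice and from 7.91 through 9.08 to 10.21 in vehicle mice. Its shift was small beside that range but regular. Hspe1 rose by 0.24 ± 0.17, a 1.18-fold change, in 38 of 44 lines and 136 of 171 pairs (adjusted p = 6.18e-10), the lowest adjusted p among members. The lowest line difference was -0.069 in CC041/TauUnc and the highest 0.66 in CC011/Unc. Dnajc30, an inner membrane J protein linked to ATP synthase, rose by 0.10 ± 0.17 (adjusted p = 0.00257), and Dnajc15, another inner membrane J protein, by 0.066 ± 0.14 (adjusted p = 0.0212). Hspa9, the mitochondrial HSP70, was at 0.025 ± 0.25 (adjusted p = 0.665). Dnajc15 was not called with arrays centred (0.055, adjusted p = 0.0658) or without pairs numbered 3 or 4 (0.059 and 0.064, adjusted p = 0.0644 and 0.0632). Of the 2 nuclear J proteins, the splicing-associated Dnajc8 rose by 0.073 ± 0.14 (adjusted p = 0.00952), and by 0.053 without pairs numbered 1 (adjusted p = 0.0678).

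Cofactors that work with these chaperones, from lists of other genes, were called in both directions. These lists were also chosen with earlier results of these data known. In the cytosol 12 of 26 measured cofactors rose and 2 fell, where 15.3% of all genes rose and 11.9% fell. Chordc1, an HSP90 co-chaperone, rose by 0.27 ± 0.51, Stub1, the ubiquitin ligase CHIP, by 0.21 ± 0.14 and Ahsa1, which activates the HSP90 ATPase, by 0.18 ± 0.18. In the ER 8 of 26 rose and 3 fell. Creld2 rose by 0.40 ± 0.53 and Sdf2l1, a component of ER J protein complexes, by 0.31 ± 0.39, whereas Uggt1, the sensor that retains misfolded glycoproteins, fell by 0.25. In mitochondria 5 of 13 rose and 1 fell, with the exchange factor Grpel2 at 0.24 ± 0.33, the stress regulator Atf5 at 0.18 ± 0.19 and the protease Clpp at 0.12 ± 0.16. The other genes that fell, named after their values were seen, were Bag1 (-0.14) and Pfdn6 (-0.065) in the cytosol, Ern1 (-0.20) and Txndc11 (-0.075) in the ER and Trap1 (-0.093) in mitochondria. In no cofactor list did a larger share fall than over all genes.

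Markers of Kupffer cells, endothelium and red blood cells mostly fell, and those of other cells mostly did not pass. Over all genes, 11.9% fell and 15.3% rose. Of 8 Kupffer cell markers 7 fell and 0 rose, and their summed linear level was 670 to 4417 with a median of 1894 in TAK-875 mice, against 1085 to 7559 with a median of 2326 in vehicle mice. Of 6 endothelial markers 4 fell, with sums of 528 to 1299 (median 930) in TAK-875 mice and 602 to 1504 (median 1039) in vehicle mice. Both red blood cell markers fell, with sums of 67.1 to 666 (median 341) in TAK-875 mice and 55.8 to 846 (median 381) in vehicle mice, of 5 stellate and smooth muscle markers 1 fell, and of 6 skeletal muscle markers 1 rose. None of 3 neutrophil or 3 germ cell markers passed, and their sums had medians of 71.2 and 47.8 in TAK-875 mice and 71.5 and 48.6 in vehicle mice. Hepatocyte sums overlapped almost wholly, with medians of 45400 in TAK-875 mice and 45560 in vehicle mice. Of the 6 hepatocyte markers, Apoa1 rose (0.059, adjusted p = 1.86e-05), Cps1 fell (-0.074, adjusted p = 0.0056) and the others did not pass. In whole liver, fewer cells of a type and less RNA per cell cannot be told apart, and the part of these shifts in the chaperone differences was not tested.

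Vehicle mice showed how far chaperones vary without the drug. Levels differed between lines for 56 of 56 members by a moderated F test, where 98.0% of all genes were called, so this count does not set the members apart. The median member had an SD of 0.31 among vehicle mice of a line and 0.24 between lines, beside 0.28 and 0.25 over all genes. By group, the median SD within a line was 0.42 for cytosolic HSP70, HSP110 and HSP90 genes, 0.37 for ER genes, 0.33 for cytosolic J proteins, 0.23 for CCT subunits and 0.22 for mitochondrial genes.

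Spread within a line was widest for Hsp90aa1, with an SD of 1.03 (99.7th percentile of all genes), followed by Dnajc12 (0.62), Hspa1b (0.60), Hspa8 (0.51), Hspb1 (0.49) and Hsph1 (0.47). The 4 vehicle mice of CC010/GeniUnc had Hsp90aa1 at 7.75, 3.56, 6.54 and 5.71, a span of several log2 units among mice of 1 genotype. The 4 of CC015/Unc had Hspa1b at 8.26, 7.16, 9.38 and 6.77, although the arrays at 7.16 and 9.38 are among the poorly correlated ones. The 4 of CC011/Unc had Dnajc12 at 8.14, 7.53, 7.23 and 10.16, with 1 mouse far above the others. At the other end, Dnajc22, Dnaja3 and Dnajc15 had SDs of 0.14, 0.15 and 0.16.

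Differences between vehicle lines were largest for Hspb1, with a between-line SD of 0.88, and Hspa1b, with 0.81, at the 97.8th and 97.2nd percentiles of all genes. Vehicle Hspb1 ran from 5.02 in CC004/TauUnc, whose mice were at 4.95, 5.42, 4.83 and 4.89, to 9.35 in CC028/GeniUnc, at 8.72, 9.65, 9.49 and 9.52. These line means differ by 20.1-fold with no overlap of mice. Vehicle Hspa1b ran from 5.73 in CC065/Unc to 9.05 in CC007/Unc, a 9.98-fold difference, with mice at 4.98, 6.36 and 5.87 in CC065/Unc and at 9.23, 8.90, 9.66 and 8.42 in CC007/Unc. The probe sets of each gene ranked the lines alike (r = 0.98 for Hspb1 and 0.99 for Hspa1b over 44 line means, as a description). Dnaja4 (between-line SD 0.58) had 3.06, 3.16 and 3.26 in CC044/Unc and 6.04, 5.96, 5.72 and 5.87 in CC028/GeniUnc. Founder sequence differences under a probe can alter its signal, and this was not tested.

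**Figure D3:**
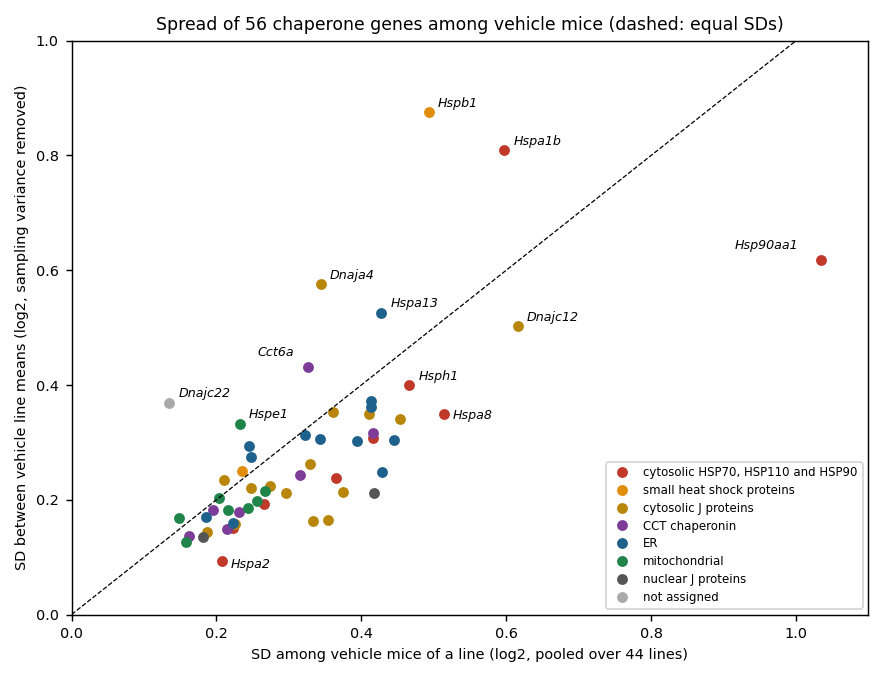
SD among vehicle mice of a line (x axis, log2) against SD between vehicle line means (y axis, log2) for the 56 members, coloured by compartment, with the dashed line at equal SDs. Hspb1 and Hspa1b stand highest at 0.88 and 0.81 between lines, and Hsp90aa1 lies farthest right at 1.03 within lines.

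The order of lines held between different mice for some members and hardly for others. The correlation of TAK-875 with vehicle line means over 44 lines was 0.94 for Dnajc22, 0.90 for Dnaja4, 0.89 for Hspe1, 0.88 for Hspb1 and 0.78 for Hspa1b, and it was 0.20 for Hsp90aa1, 0.22 for Hspa4, 0.24 for Dnajc2 and 0.28 for Hsph1 and Cct8. Paired mice shared a dosing occasion, so these values describe line and occasion together.

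Responses differed between lines for 17 of 56 members in the moderated F test on pair differences, where 16.2% of all genes passed. By group these were 6 of 7 CCT subunits, 5 of 12 ER members, 4 of 15 cytosolic J proteins, 1 of 9 HSP70, HSP110 and HSP90 genes and 1 of 8 mitochondrial members. Cct6a had an adjusted p of 0.0058, Cct3 of 0.0159, Dnajc2 of 0.0166, Dnajc3 of 0.0192, Hspa13 of 0.024, Hspa5 of 0.0312, Hsp90b1 of 0.0408 and Cct2 of 0.045. The widest estimated SD of response between lines was that of Hsp90aa1, 0.61, beside 1.52 among pairs of a line, and it did not pass (adjusted p = 0.0591). Hsph1 had 0.35 beside 0.87 (adjusted p = 0.0597). The count moved with the pairs used. Leaving out the pairs of 1 number gave 2, 0, 2 and 8 calls for numbers 1 to 4, and without the poorly correlated pairs there were 13. Whether fewer pairs or the particular mice left out changed the count was not tested. Counts over all genes in these settings are not given here. Without the pairing as a block 7 members were called.

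Within single lines, 55 member calls were made in 11 lines, 44 rises and 11 falls over 37 members, and no member was called in the other 33 lines. Over all genes and lines, 0.895% of tests were rises and 0.749% falls. The count was 57 with arrays centred and 72 without the poorly correlated pairs, while leaving out pair numbers 1, 2, 3 or 4 gave 27, 26, 35 and 73. Counts over all genes in these settings are not given here.

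CC005/TauUnc had the most rises, 14 of 56 members, where 7.35% of all genes rose, and they included 6 CCT subunits. Cct6a stood at 8.43, 8.65, 8.79 and 8.42 in its TAK-875 mice and at 6.94, 7.41, 7.74 and 7.26 in its vehicle mice, so every TAK-875 mouse was above every vehicle mouse. Cct6a rose 2.35-fold there (adjusted p = 3.23e-05). On the log2 scale, Cct8 rose by 1.09, Cct4 by 1.05, Hspa5 by 0.93 and Cct5 by 0.78. Vehicle means of CC005/TauUnc were the lowest of all lines for Cct4 (7.746), Cct5 (8.907), Cct8 (6.821) and Hspa5 (9.612). For Cct6a its vehicle mean was 7.338, with only CC063/Unc lower (7.251). Its TAK-875 means of these genes, in that order, were 8.795, 9.686, 7.911, 10.54 and 8.572. Over all arrays the genes had means of 8.891, 9.736, 7.743, 10.56 and 8.556. The part of the low vehicle levels in these rises was not tested. In CC007/Unc 9 members rose, against 2.34% of all genes. Hsph1 was at 9.06, 9.42, 10.52 and 9.07 in TAK-875 mice and at 7.98, 7.64, 7.64 and 8.50 in vehicle mice, again without overlap, a 2.99-fold rise (adjusted p = 0.014). Without pair 2 or 3 that call was lost (1.51 and 1.15, adjusted p = 0.119 and 0.559).

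CC029/Unc had 5 rises, where 1.50% of genes rose. Hspa4l was at 4.70, 4.95, 6.03 and 5.51 in TAK-875 mice and at 4.71, 4.41, 4.22 and 3.95 in vehicle mice, with 1 pair level and the others apart (difference 0.98, adjusted p = 0.0418). CC052/GeniUnc had 7 rises, where 8.64% of genes rose, and 4 of them were mitochondrial J proteins, led by Dnajc19 at 0.89 (adjusted p = 1.35e-04). Hspb8 rose by 1.04 in that line (adjusted p = 5.14e-05). Its Dnajc12 values were 10.25, 7.60, 8.09 and 8.26 in TAK-875 mice and 6.60, 7.53, 7.00 and 7.05 in vehicle mice, with pair 1 far apart, and without pair 1 the difference was 0.79 (adjusted p = 0.419) in place of 1.50. In the same line 2 of the vehicle arrays were poorly correlated ones.

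CC041/TauUnc ran the other way, with 9 members that fell and 3 that rose, where 8.69% of all genes fell and 6.74% rose. Dnaja1, a main cytosolic J protein, was at 8.74, 9.72, 8.92 and 9.94 in its TAK-875 mice and at 10.00, 10.50, 10.54 and 10.21 in its vehicle mice, all TAK-875 mice lower. Its difference was -0.98 (adjusted p = 0.026), and it lost its call without pair 1, 2 or 3 (-0.89, -1.05 and -0.77). Hsp90b1 (-0.92), Hspa13 (-0.85) and the mitochondrial Hspa9 (-0.74) fell as well, while Dnajc4 (0.54), Hspbp1 (0.52) and Dnajc14 (0.43) rose. The array medians of this line averaged 0.069 lower in TAK-875 mice.

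Many of these calls rested on few mice. Of the largest call in each of the 11 lines, that of Cct6a in CC005/TauUnc passed with each pair number left out, and the other 10 were lost without at least 1 pair, in fits that leave 2 or 3 pairs in the line and take the spread over all lines. In CC042/GeniUnc Hspa1b was at 6.91, 7.88 and 5.15 in TAK-875 mice and at 9.54, 9.16 and 7.68 in vehicle mice, a difference of -2.14 (adjusted p = 0.0138). In this line 2.58% of all genes fell. Of those TAK-875 arrays 2 were poorly correlated, and the remaining pair gave -1.28, a value from 1 pair that is not read as a test. In CC065/Unc Dnajc12 was at 7.42, 7.79 and 7.46 in TAK-875 mice and at 10.76, 8.17 and 9.86 in vehicle mice, a difference of -2.04 (adjusted p = 0.0196), where 0.121% of all genes fell. The TAK-875 mice were close together and the vehicle mice spread over more than 2 log2 units. Among vehicle line means, Dnajc12 was highest in CC065/Unc (9.595) and lowest in CC052/GeniUnc (7.046), with the median line at 7.662. The TAK-875 mean of CC065/Unc was 7.553. The part of these vehicle extremes in the Dnajc12 calls of both lines was not tested. In CC021/Unc Hspa5 was at 10.79, 10.76, 10.35 and 10.91 in TAK-875 mice and at 9.39, 8.97, 10.18 and 10.35 in vehicle mice (0.98, adjusted p = 0.0309), and 0.473% of all genes rose there. In CC017/Unc Dnajb11 was at 9.61, 9.53, 9.47 and 9.47 in TAK-875 mice and at 8.95, 8.86, 8.94 and 9.07 in vehicle mice, a tight split (0.57, adjusted p = 0.0441), where 0.297% of all genes rose. Cct3 rose by 0.61 in CC070/TauUnc, where 0.352% of all genes rose. Dnajc2 (1.11) and Hspa2 (0.75) rose in CC053/Unc, where 1.22% of all genes rose and each pair holds a poorly correlated array.

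**Figure D4:**
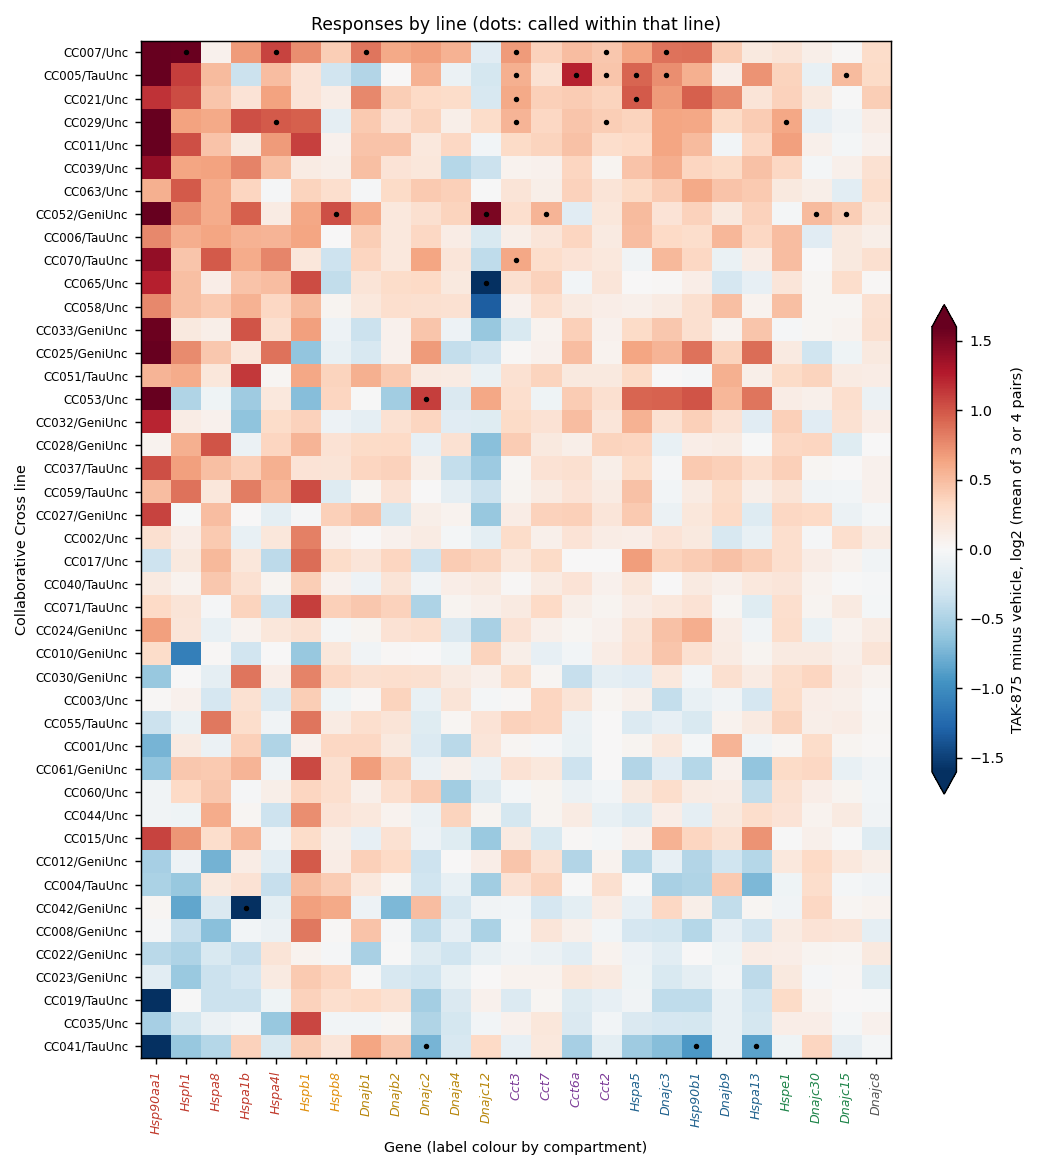
TAK-875 minus vehicle difference (log2, colour) of 25 members (columns, by compartment) in 44 lines (rows, from the highest to the lowest median over the 56 members), with dots on calls within a line. Hspb1 is red in most rows, and CC041/TauUnc, in the bottom row, is blue for Hsp90aa1 and most ER members.

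Spread among mice of a line was compared between treatments by the log2 ratio of SDs in each line. The ratio was above 0 for 47 of 56 members with a median of 0.18, beside 7041 of 9093 genes and a median of 0.14, so the arrays of TAK-875 mice varied more in general. Hsph1 alone passed, where 1.06% of all genes passed in that direction and 0.0110% in the other, with an SD 1.55 times as large in TAK-875 as in vehicle mice (adjusted p = 0.0473). That call was lost with arrays centred (adjusted p = 0.053), without the poorly correlated pairs (ratio 0.43 on the log2 scale, adjusted p = 0.663) and without any 1 pair number.

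Some members varied together, and 12 of 14 relations passed, counting those over vehicle mice and those over line responses. The same count over pairs of other genes was not made, so it does not set the members apart. Over 171 vehicle mice, as deviations from their line means, Hspa5 and Hsp90b1 had r = 0.87 (Spearman rho = 0.88) and Hspa5 and Dnajb9 r = 0.53 (rho = 0.49), each with an adjusted permutation p of 2.0e-05 over 14 relations, from the smallest p that 100000 permutations can give. Hspa1b and Dnajb1 had r = 0.64 (rho = 0.66) and Cct2 and Cct5 r = 0.78 (rho = 0.73), at the same adjusted p. Hspa1b and Hspa5 did not correlate detectably, at r = 0.071 (rho = 0.032, adjusted permutation p = 0.48). Leaving out the 2 mice farthest from the median moved these to 0.87, 0.48, 0.70, 0.76 and 0.036. Over the 44 line responses, r was 0.85 for Hspa5 and Hsp90b1 (rho = 0.83), 0.62 for Hspa5 and Dnajb9 (rho = 0.61), 0.74 for Cct2 and Cct5 (rho = 0.68), 0.41 for Hspa1b and Dnajb1 (rho = 0.45, adjusted permutation p = 0.00583) and 0.055 for Hspa1b and Hspa5 (rho = 0.088, adjusted permutation p = 0.724). Without the 2 farthest lines these were 0.84, 0.62, 0.67, 0.40 and -0.057.

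Genes on 1 array share its overall signal. Among vehicle mice 34 of 56 members had r above 0.3 with the array median, from -0.22 for Dnajc30 to 0.61 for Dnajc21, with 0.58 for Hsp90aa1, 0.43 for Hspa5, 0.10 for Hspa1b and -0.096 for Hspb1. With arrays centred, Hspa5 and Hsp90b1 kept r = 0.84, Hspa1b and Dnajb1 r = 0.64 and Cct2 and Cct5 r = 0.73, while Hsp90aa1 and Hspa8 changed to 0.16 (adjusted permutation p = 0.0774), against 0.27 as deposited (adjusted permutation p = 0.0027). Within the described pairs as deposited, Dnajc3 joined the ER set, at 0.79 with Hspa5 and 0.78 with Hsp90b1. With arrays centred these were 0.76 and 0.75. Members of other compartments came close to these values, such as Hsp90aa1, at 0.75 with Hsp90b1 and 0.67 with Hspa5, Dnajc2, at 0.72 with Hsp90b1, and Cct6a, at 0.66 with Hspa5. Dnajc30 ran against the ER set, at -0.72 with Hsp90b1 and -0.63 with Hspa5 as deposited, and at -0.68 and -0.60 with arrays centred. What else differed between these arrays, such as RNA quality, was not tested.

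**Figure D5:**
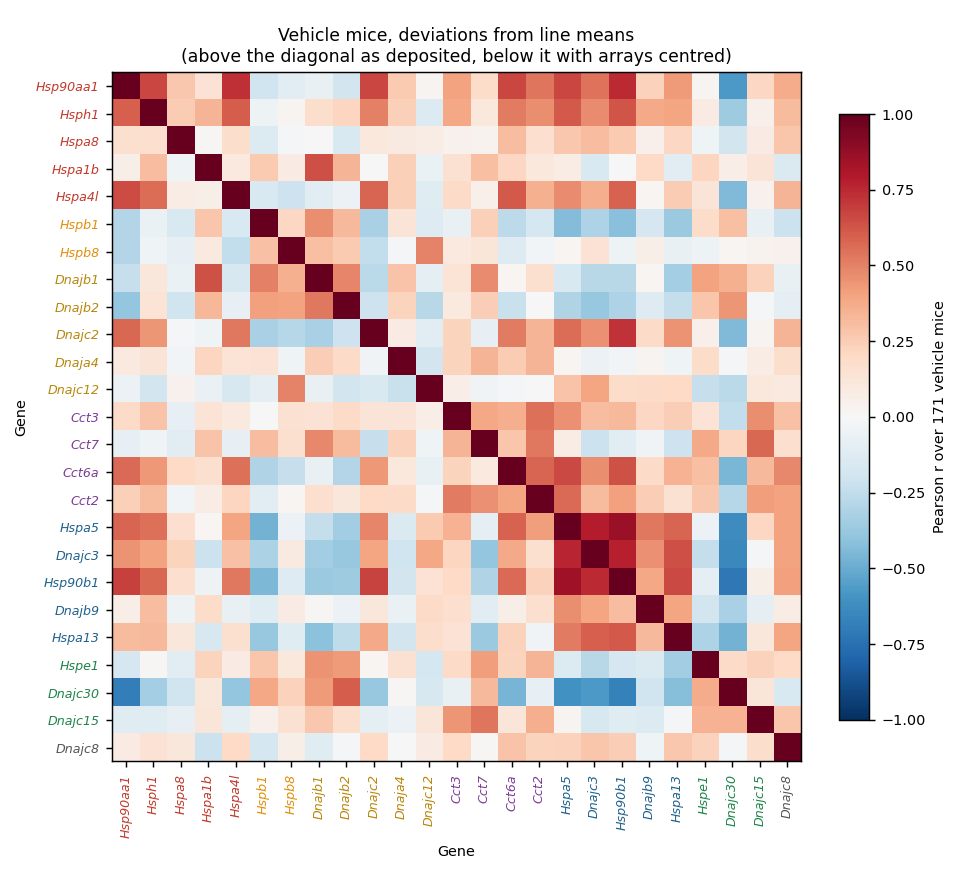
Pearson r (colour) between 25 members over 171 vehicle mice as deviations from line means, with values as deposited above the diagonal and with arrays centred below it. As deposited, Hspa5, Dnajc3 and Hsp90b1 form a red block at 0.78 to 0.87, Hspa1b is red with Dnajb1 at 0.64, and Dnajc30 is blue against the ER block.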

How the data were processed

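Liver RNA of 342 mice was labelled by 3' IVT and hybridised to Affymetrix arrays, as the labels state. The authors deposited log2 expression values per probe set. The submitters' processing notes name RMA and Affymetrix Power Tools, with versions not given in the sources used here. Of 16397 probe sets, 13083 name 1 gene and were used, 261 name several and 3053 none. The members and lists were chosen with earlier results of these data known.

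Tests used limma 3.58.1 in R 4.3.3 (eBayes with a trend on mean level, two-sided, Benjamini-Hochberg adjusted p under 0.05 over all 9093 genes). Line mean differences were tested against 0, moderated F tests compared lines (127 residual degrees of freedom for pair differences), and log2 SD ratios per line were tested against 0. Study pairs came from the labels, which say that mice were treated in pairs. Scripts were tested on simulated data. Correlations used 100000 permutations, of mice within their line or of line means, in Python 3.11.15 with numpy 2.4.6. Percentiles rank a member among all genes.

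The 25 genes named by rule were fixed inducible and ER chaperones, up to 4 called members per group, and the 6 members with the largest SD within vehicle lines, between vehicle lines and of the response, and up to 3 called cofactors per list. Other members were named where they were called in a line or completed a count. Of the members' probe sets, 19 belong to the design class for related transcripts of a family and 5 to the class open to unrelated transcripts. Mice are separate animals. Alternatives were other scalings, all probe sets of a gene, no variance trend, no dim probe sets, other units of pairing and samples left out.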

Additional observations from a re-analysis of the deposited data

Results flagged for a closer look

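The response to TAK-875 differed between lines for 8 of the 25 members named by rule, by the moderated F test on pair differences. Of all genes, 16.2% passed that test. Dnajc2, Hspa13 and Hsp90b1 were among the members named for a wide SD of response between lines, so the choice of members partly set this count. The adjusted p was 0.0058 for Cct6a, 0.0159 for Cct3, 0.0166 for Dnajc2, 0.0192 for Dnajc3, 0.024 for Hspa13, 0.0312 for Hspa5, 0.0408 for Hsp90b1 and 0.045 for Cct2. Each of these lost its call when the pairs of at least 1 number were left out.

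Of 33 groups of 4 mice checked for a mouse far from the others, 1 was picked out, where chance alone picks about 1 in 20. Among the vehicle mice of CC003/Unc, the line with the highest vehicle Hspa8, 1 mouse had Hspa8 at 4.90 while the others were at 6.21, 6.17 and 6.06.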

How the results depend on the processing

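Of 840 repeats of single values under the alternatives, 723 kept their direction and their side of the threshold, 99 dropped below it, 15 moved past it and 3 reversed. The reversed values were small: Hspa13 ran from -0.021 to 0.089 and Dnaja4 from -0.039 to 0.0034 with 1 pair number left out, and r of Hspa1b and Hspa5 over lines was -0.069 with arrays centred, and the cause was not tested. With the pair as the unit, a replicate block, 26 members rose in place of 24. Members that rose numbered 13 to 25 with 1 pair number left out, cytosolic ones 8 to 15, ER ones 2 to 6, mitochondrial ones 2 to 3 and CCT subunits 3 to 5, with 3 CCT subunits after quantile normalization. With the mean of all probe sets of a gene, 1 member fell, Dnajc19. Members with unequal responses numbered 0 to 8 with 1 pair number left out and 7 with no replicate block. No member passed the test of SD ratios with arrays centred, without poorly correlated pairs or with 1 pair number left out (0 in each), and calls within lines numbered 26 to 73 with 1 pair number left out. Leaving out pairs also leaves fewer mice per line. Counts over all genes with pairs left out are not given beside these, so they do not set the members apart. Leaving pairs out within single lines was chosen after seeing the data. Array number and dim probe sets, those of Hsp90aa1 and Hspa8 above all, limit these values.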
